A study of Mus musculus with 20 samples.

Results

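The collagen genes of the mouse retina were examined as the entries of the deposited expression tables whose symbol has the form Col, a number, a and a number. There were 44 such genes among the 18754 genes that all 4 tables list, 44 of 19368 in the knockout experiment and 44 of 19102 in the injection experiment. By chain type they comprised 11 fibrillar chains, 9 basement membrane chains, 3 network-forming chains and 21 others, of which 9 were FACIT chains (fibril-associated collagens with interrupted helices), 8 were beaded filament chains of type VI and related genes, and 4 were transmembrane collagens. Expression came from bulk RNA-Seq of whole mouse retinas on the C57BL/6J background, with 20 libraries in 4 groups of 5. The Atf6+/+ OIR and Atf6-/- OIR groups were wild-type and Atf6-knockout pups of both sexes that underwent oxygen-induced retinopathy (OIR). They were kept in 75% oxygen from postnatal day 7 (P7) to P12, returned to room air, and their retinas were taken at P17. The PBS and Ceapin-A7 groups were wild-type P30 mice whose eyes received 1 µL intravitreally, and retinas were taken 24 h later. The injection was either saline with solvent, which the labels call PBS, or 10 µM Ceapin-A7 in saline with solvent. By the methods of the study the control held the higher solvent concentration, so solvent and Ceapin-A7 differ together between these groups. Ceapin-A7 is a small molecule that keeps ATF6, a stress sensor of the endoplasmic reticulum (ER), from being activated. The knockout is a constitutive allele with an early stop codon, carried by all cells of the animal, so no cell type is targeted by it. In bulk tissue, fewer cells of a type and less RNA per cell cannot be told apart.

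Collagens are secreted matrix proteins whose chains wind around each other in the ER before export, which makes their folding a large task for that organelle. Fibrillar collagens build the fibres of connective tissue and, as type II with types V and XI, those of the vitreous, whereas type IV collagen forms the sheet-like basement membrane of retinal vessels and of the inner limiting membrane. Type VIII is laid down by endothelial cells, the cornea and Bruch's membrane under the pigment epithelium, type IX decorates vitreous fibrils, and types XV and XVIII link basement membranes to the tissue around them.

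FPKM, fragments scaled by transcript length and by the number of mapped fragments, summed to between 415014 and 456250 per library in OIR and to between 410599 and 431118 at P30. Depth was read only as relative depth from the steps of low values, and it was 0.92 or more except in Ceapin-A7 replicate 3, at 0.68. Defining markers of rods and cones summed to between 13470 and 20420 FPKM, so all 20 libraries carried the labelled tissue. The Atf6 gene itself lay between 14.61 and 16.05 FPKM in Atf6+/+ OIR and between 13.57 and 16.83 FPKM in Atf6-/- OIR. Since the allele carries a stop codon, this level does not check the genotype, and the groups are called by their labels throughout. Although the protocol removed the lens, 9 lens markers summed to between 6.81 and 4147 FPKM in PBS and between 66.8 and 7335 FPKM in Ceapin-A7, and to between 8.32 and 396.4 FPKM in Atf6+/+ OIR and between 4.9 and 8.61 FPKM in Atf6-/- OIR.

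Collagen expression was dominated by a few chains that basement membranes, the vitreous and glia use. In Atf6+/+ OIR retinas the most abundant was Col4a1, a core chain of type IV collagen, at 62.3 ± 16.2 FPKM (SD, n = 5), then Col9a1 of the vitreous at 53.7 ± 13.9 FPKM, Col2a1 of vitreous fibrils at 40.1 ± 7.8 FPKM, Col6a1 of beaded filaments at 39.4 ± 0.987 FPKM, Col4a2 at 38.9 ± 11.3 FPKM and the transmembrane Col23a1 at 36.5 ± 3.88 FPKM. The means of Col2a1, Col6a1, Col4a2 and Col23a1 differed by less than the SD of Col23a1, so the order of these 4 is not resolved. These 6 genes held 65.1% of all collagen FPKM in Atf6+/+ OIR, and the 6 most abundant held 64.3% in Atf6-/- OIR, 54.3% in PBS and 55.3% in Ceapin-A7. Col9a1 headed the order in Atf6-/- OIR, at 74.8 ± 11.6 FPKM, and in Ceapin-A7, at 22.4 ± 4.31 FPKM. In PBS, Col4a1 stood first at 23.3 ± 27.9 FPKM, a mean carried by 1 library, before Col6a1 at 22.5 ± 4.47 FPKM. A mean of at least 10 FPKM was reached by 10 genes in each OIR group and by 6 in each P30 group. Below a mean of 0.1 FPKM there were 0 genes in the OIR groups, 3 in PBS and 2 in Ceapin-A7.

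Summed over all 44 genes, collagen expression was 416.3 ± 52.5 FPKM in Atf6+/+ OIR, 381.6 ± 38.3 FPKM in Atf6-/- OIR, 184.5 ± 71.5 FPKM in PBS and 177.3 ± 20.6 FPKM in Ceapin-A7. The P17 and P30 levels stand side by side without a test, because age, oxygen and injection differ together and each group is a table of its own. Within OIR the basement membrane sum was 140.1 ± 32.2 FPKM in Atf6+/+ and 99.8 ± 39.6 FPKM in Atf6-/-, where 4 libraries lay between 68.6 and 101.9 FPKM and replicate 5 at 166.2 FPKM. The network sum was 2.62 ± 0.613 FPKM in Atf6+/+ OIR, 3.74 ± 1.54 FPKM in Atf6-/- OIR, 4.33 ± 1.27 FPKM in PBS and 3.31 ± 1.07 FPKM in Ceapin-A7, so that it alone among the 4 chain types was not lower at P30 than in Atf6+/+ OIR.

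**Figure D1:**
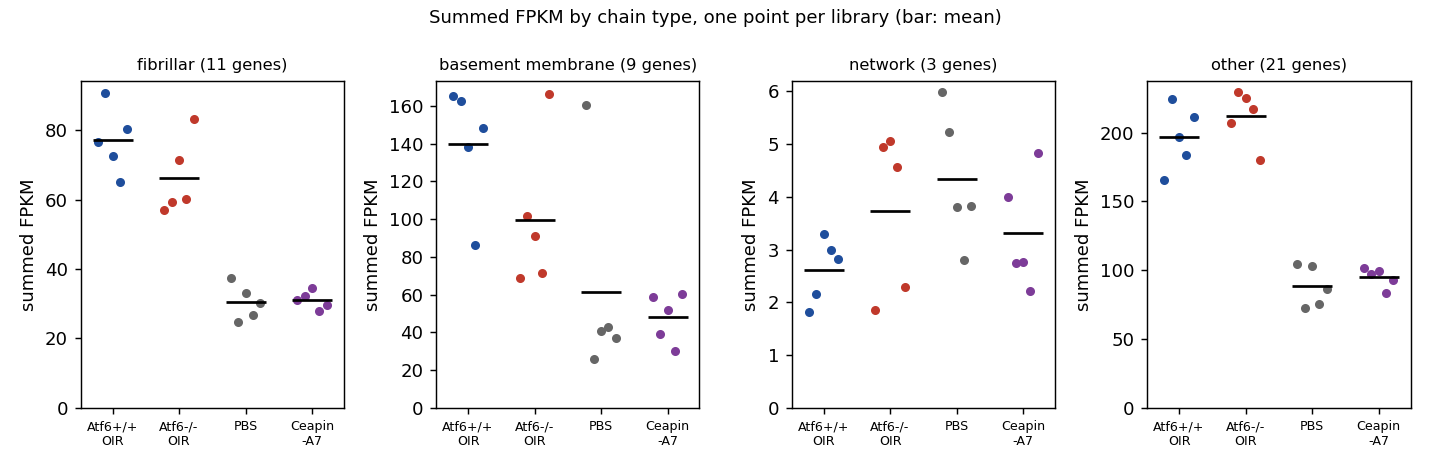
Summed FPKM of each chain type (vertical axes, linear from 0) in the 4 groups, with 1 point per library, replicates 1 to 5 from left to right, and a bar at the mean. The basement membrane sum of Atf6-/- OIR replicate 5 reached 166.2 FPKM and that of PBS replicate 1 reached 160.3 FPKM, each far above the other libraries of its group.

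Promoter sequence was available for 35 of the 44 genes, as 38 windows of the RefSeq promoter table (GRCm38.p6). Shown are the 250 bases upstream of the start of 3 genes with lower values in Atf6-/- OIR retinas, Col10a1, Col3a1 and Col15a1, and of Col8a1, a network chain with a higher estimate there. Capitals mark 3 motifs on either strand, which are the TATA box with the letters TATAAA, the GC box with the letters GGGCGG, and the CCAAT box, named for its letters. The windows are chr10:34389731-34389980 (+) for Col10a1, chr1:45311288-45311537 (+) for Col3a1, chr4:47207762-47208011 (+) for Col15a1 and chr16:57754738-57754987 (-) for Col8a1, each written in the direction of the gene.
Col10a1: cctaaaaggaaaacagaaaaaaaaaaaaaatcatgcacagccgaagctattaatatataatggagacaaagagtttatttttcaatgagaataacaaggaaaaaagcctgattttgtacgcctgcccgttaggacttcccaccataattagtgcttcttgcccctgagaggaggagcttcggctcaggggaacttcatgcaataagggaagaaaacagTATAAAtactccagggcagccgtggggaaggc
Col3a1: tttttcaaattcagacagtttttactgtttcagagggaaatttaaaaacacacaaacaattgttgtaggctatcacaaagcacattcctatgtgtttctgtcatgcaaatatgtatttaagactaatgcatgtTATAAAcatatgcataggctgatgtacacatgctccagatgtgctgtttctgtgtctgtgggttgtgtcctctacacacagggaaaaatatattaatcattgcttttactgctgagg
Col15a1: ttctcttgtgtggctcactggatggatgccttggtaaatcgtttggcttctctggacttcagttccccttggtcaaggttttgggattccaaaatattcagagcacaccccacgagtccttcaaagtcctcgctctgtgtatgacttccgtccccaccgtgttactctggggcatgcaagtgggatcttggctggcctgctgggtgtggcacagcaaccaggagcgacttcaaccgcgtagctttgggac
Col8a1: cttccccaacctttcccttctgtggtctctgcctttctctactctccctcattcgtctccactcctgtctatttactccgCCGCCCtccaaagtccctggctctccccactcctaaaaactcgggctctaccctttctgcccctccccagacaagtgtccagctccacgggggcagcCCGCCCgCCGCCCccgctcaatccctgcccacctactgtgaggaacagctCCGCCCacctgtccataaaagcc
Col10a1 has a TATA box whose first base lies 32 bases before the start, Col3a1 has one 117 bases before it, Col15a1 holds none of the 3 motifs, and Col8a1 holds 4 GC boxes.

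Motif shares were counted over the full windows of 300 bases, 250 before the start and 50 after it. Among the 38 collagen windows, searched on both strands, CCAAT was present in 34.2% against 37.4% of all 32851 windows, and TATAAA in 13.2% against 13.6%. GGGCGG stood in 60.5% of the collagen windows against 35.7% of all. The full-length ER stress response element, which begins with a CCAAT box and through which ATF6 acts with NF-Y, was in 0 collagen windows and in 0.119% of all windows. TGACGTGG, an element of the unfolded protein response, was likewise in 0 and in 0.676%, and TGACGTCA, the cyclic AMP response element, in 2.63% and in 1.79%, with Col24a1 as the collagen that holds it. The absence says only that these letters are not within these windows of 300 bases.

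The knockout comparison asked whether loss of Atf6 alters the retina during pathological vessel growth. More collagen genes had lower than higher values in Atf6-/- OIR retinas, but none passed the adjusted threshold. Of 44 collagen genes tested, 28 had lower and 16 higher estimates, with a median log2 fold change of -0.10 against 0.003 over all 15704 genes tested. By limma with Benjamini-Hochberg adjustment, 0 of the 44 were called at an adjusted p below 0.05, where 0.0318% of all genes were, and the smallest adjusted p was 0.0955, for Col10a1. At an unadjusted p of 0.05 or less there were 15 collagen genes, 34.1% of them, against 12.7% of all genes. Of these, 12 were lower, 27.3% against 5.81% of all genes, and 3 were higher, 6.82% against 6.94%. After rescaling, the values of the 2 groups did not overlap for 2 collagen genes, Col10a1 and Col16a1, both lower in Atf6-/- OIR, where 1.8% of all genes had no overlap (0.694% lower and 1.11% higher).

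The count of 12 lower genes depended on single libraries and on the fit. It was 5 without Atf6-/- OIR replicate 1 (11.4% of the collagen genes against 3.79% of all genes), 6 without replicate 2 (13.6% against 5.03%), 7 without replicate 4 (15.9% against 3.05%) and 13 without replicate 5. It was 6 without Atf6+/+ OIR replicate 2 (13.6% against 4.16%) and 7 without its replicate 5 (15.9% against 5.22%). When all 20 libraries were fitted together it was 5, or 11.4% against 8.08%, and 1 gene was higher, or 2.27% against 9.38%. Without Atf6-/- OIR replicate 5, 4011 of all genes passed the unadjusted threshold, 13.7% of all genes lower and 11.8% higher, beside 29.5% and 11.4% of the collagen genes.

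**Figure D2:**
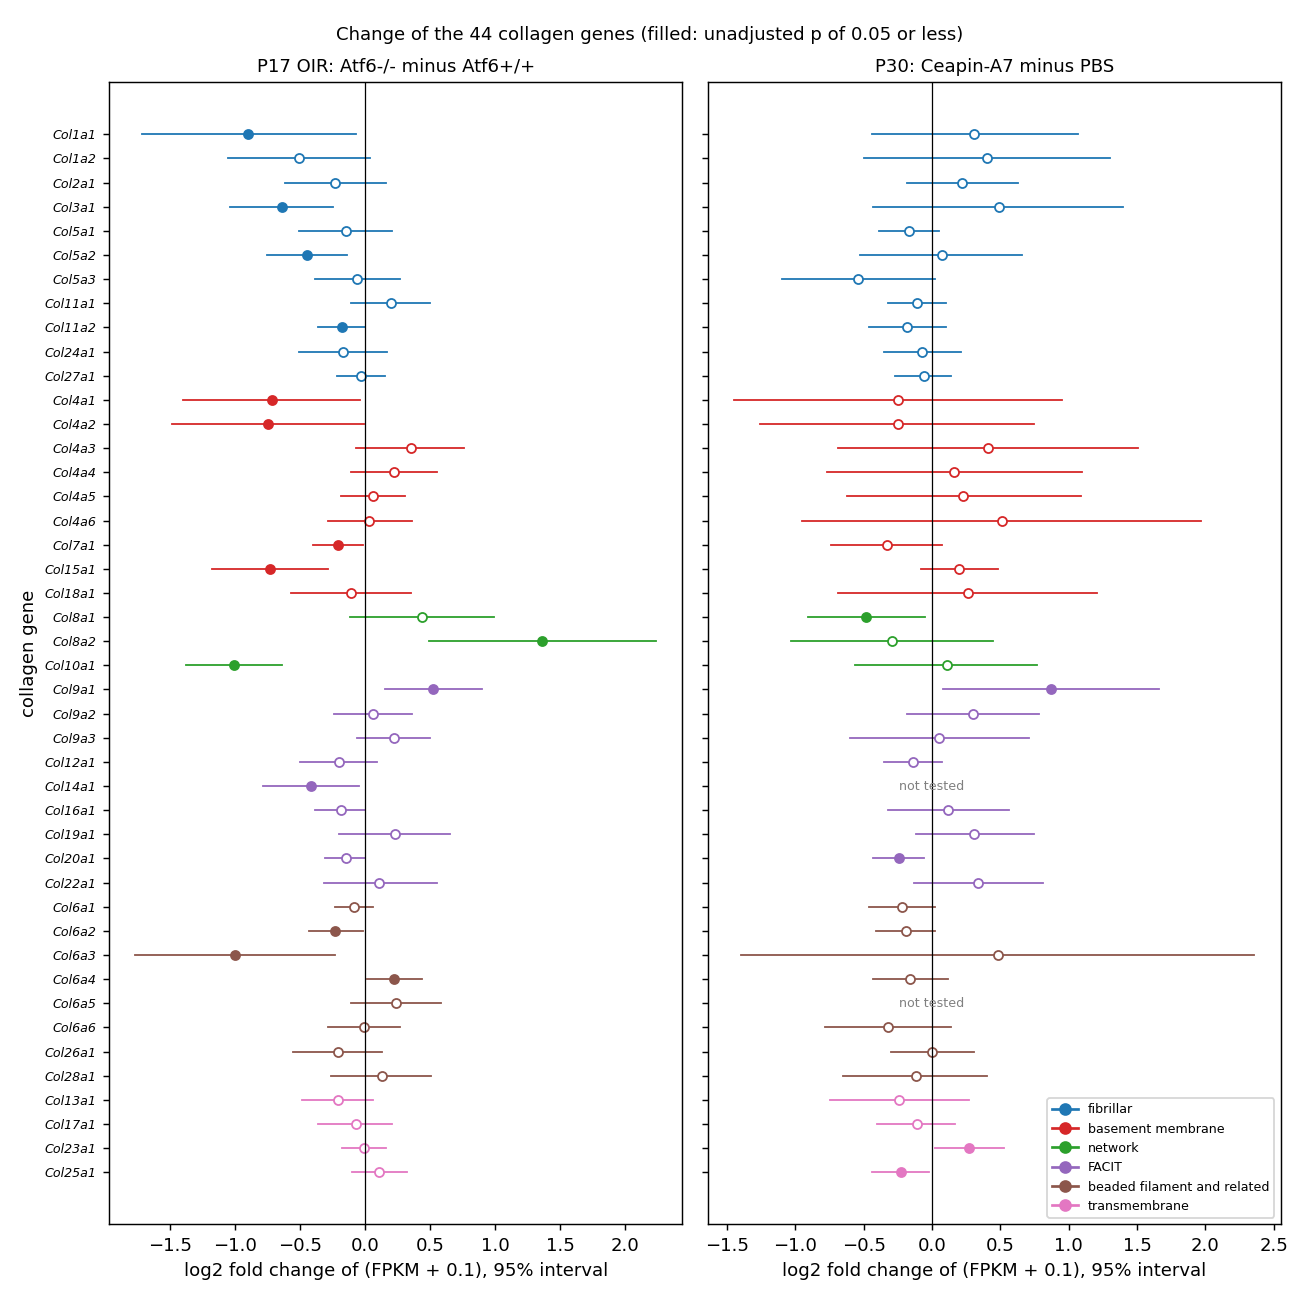
Log2 fold change of FPKM + 0.1 (horizontal axes) with its 95% interval for each of the 44 collagen genes, coloured by chain type, in OIR (left, Atf6-/- minus Atf6+/+) and at P30 (right, Ceapin-A7 minus PBS). Filled points have an unadjusted p of 0.05 or less, 15 genes in OIR and 5 at P30, and the intervals of Col4a1, Col4a2, Col4a3, Col4a6 and Col6a3 at P30 are wide.

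Among the fibrillar chains, 10 of 11 had lower estimates in Atf6-/- OIR retinas, with a median log2 fold change of -0.18. At an unadjusted p of 0.05 or less, 4 were lower (Col1a1, Col3a1, Col5a2 and Col11a2), 36.4% against 5.81% of all genes. None was higher at that threshold, against 6.94% of all genes. Col3a1, the chain of type III collagen in vessel walls, was at 4.18, 3.65, 3.73, 3.51 and 3.45 FPKM in the 5 Atf6+/+ OIR libraries (replicates 1 to 5, as in all lists that follow) and at 1.76, 2.1, 2.12, 2.14 and 3.81 FPKM in Atf6-/- OIR. Only replicate 5 of the knockouts lay within the wild-type range, and the other 4 were below every wild-type library. The log2 fold change was -0.64 (SE 0.18, adjusted p = 0.358). Without knockout replicate 5 it was -0.84 with an adjusted p of 0.00644 by limma, a value that follows from leaving out the library out of line. Leaving out any other single library gave adjusted p-values of 0.156 to 0.693 by limma.

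Col1a1, the main chain of type I collagen, was at 1.91, 1.52, 1.28, 0.98 and 1.69 FPKM in Atf6+/+ OIR and at 0.36, 0.6, 0.67, 0.52 and 2.29 FPKM in Atf6-/- OIR. Again 4 knockout libraries lay below all wild-type libraries and replicate 5 above them, and the log2 fold change was -0.90 (SE 0.38, adjusted p = 0.374). Its partner Col1a2 was at 3.19, 4.18, 2.84, 2.07 and 3.12 FPKM against 1.99, 1.76, 1.72, 1.54 and 3.86 FPKM, with a log2 fold change of -0.51 (SE 0.25, adjusted p = 0.413). In FPKM the groups overlapped through replicate 5 alone here too, whereas after rescaling 3 knockout libraries lay below all wild-type libraries.

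Col5a2, which is incorporated into type I fibrils, was at 1.95, 2.19, 2.19, 1.57 and 1.86 FPKM in Atf6+/+ OIR against 1.19, 1.76, 1.34, 1.14 and 1.53 FPKM in Atf6-/- OIR. In FPKM the ranges overlapped through 1 knockout library, replicate 2, and after rescaling 3 knockout libraries lay below all wild-type libraries. The log2 fold change was -0.45 (SE 0.14, adjusted p = 0.358). Col2a1, the type II chain, was at 38.29, 52.09, 36.26, 31.36 and 42.44 FPKM in Atf6+/+ OIR and at 27.66, 26.97, 38.77, 29.86 and 46.97 FPKM in Atf6-/- OIR, with a log2 fold change of -0.23 (95% interval -0.62 to 0.16) and broad overlap. Col11a1 was the fibrillar chain with a higher estimate, at 0.20, and Col5a3, at 9.51, 6.46, 7.72, 6.39 and 8.87 FPKM against 5.29, 8.1, 8.22, 7.05 and 8.25 FPKM, had a log2 fold change of -0.06 whose sign turned when replicate 1 of either group was left out.

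The basement membrane chains differed by gene pair. Col4a1 and Col4a2, the chains of the common vascular type IV network, had lower values in Atf6-/- OIR, as did the vessel-associated Col15a1 and the anchoring fibril chain Col7a1, whereas Col4a3 to Col4a6 had higher estimates of 0.35, 0.22, 0.06 and 0.03, none with an unadjusted p of 0.05 or less. Col4a1 was at 80.75, 68.56, 60.0, 36.66 and 65.65 FPKM in Atf6+/+ OIR and at 22.97, 38.92, 34.5, 25.86 and 76.98 FPKM in Atf6-/- OIR. Wild-type replicate 4 was low in its group and knockout replicate 5 high in its own, and through them the groups overlapped. The log2 fold change was -0.72 (SE 0.31, adjusted p = 0.376). Leaving out 1 library at a time gave -1.01 to -0.56. The value of -1.01 (adjusted p = 0.0987 by limma) came from leaving out knockout replicate 5, a library out of line. Col4a2 was at 48.79, 45.22, 37.72, 19.98 and 42.62 FPKM against 14.84, 22.25, 19.76, 14.9 and 49.9 FPKM, a log2 fold change of -0.75 (SE 0.34, adjusted p = 0.387), with the same libraries out of line.

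Col15a1 was at 2.55, 2.66, 2.66, 1.22 and 1.87 FPKM in Atf6+/+ OIR and at 1.08, 1.14, 1.2, 1.22 and 1.46 FPKM in Atf6-/- OIR. Here wild-type replicate 4 alone reached into the knockout range, and knockout replicate 5, though the highest of its group, stayed below the other wild-type libraries. The log2 fold change was -0.73 (SE 0.20, adjusted p = 0.358). Col18a1, the source of the fragment endostatin, was at 19.45, 30.31, 23.79, 13.73 and 23.57 FPKM against 16.58, 23.25, 19.38, 14.78 and 26.05 FPKM, with a log2 fold change of -0.11 (95% interval -0.57 to 0.35) and full overlap.

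The 8 mural cell markers (pericytes and smooth muscle) all had lower estimates in Atf6-/- OIR, 4 at an unadjusted p of 0.05 or less (50% against 5.81% of all genes), with a median log2 fold change of -0.51. Their sum was between 98.9 and 146.2 FPKM in Atf6+/+ OIR and between 81.7 and 101.8 FPKM in Atf6-/- OIR, with replicate 5 highest among the knockouts. The 8 endothelial markers summed to between 94.9 and 160.8 FPKM and between 93.9 and 136.9 FPKM, with 7 lower and 1 higher estimate, a median log2 fold change of -0.20 and 1 lower gene past the unadjusted threshold (12.5% against 5.81%). No marker of either list was at 0 in all libraries of a group. Of the fibroblast, choroid and sclera markers 6 were tested, 5 with higher and 1 with a lower estimate and a median log2 fold change of 0.15. At the unadjusted threshold 1 was higher and 1 lower (16.7% each, against 6.94% and 5.81% of all genes). Of 8 lens markers tested 7 had lower estimates, 6 past that threshold (75% against 5.81%), with a median log2 fold change of -2.0. The part of any of these lists in the lower type I, III, IV and XV values was not tested.

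**Figure D3:**
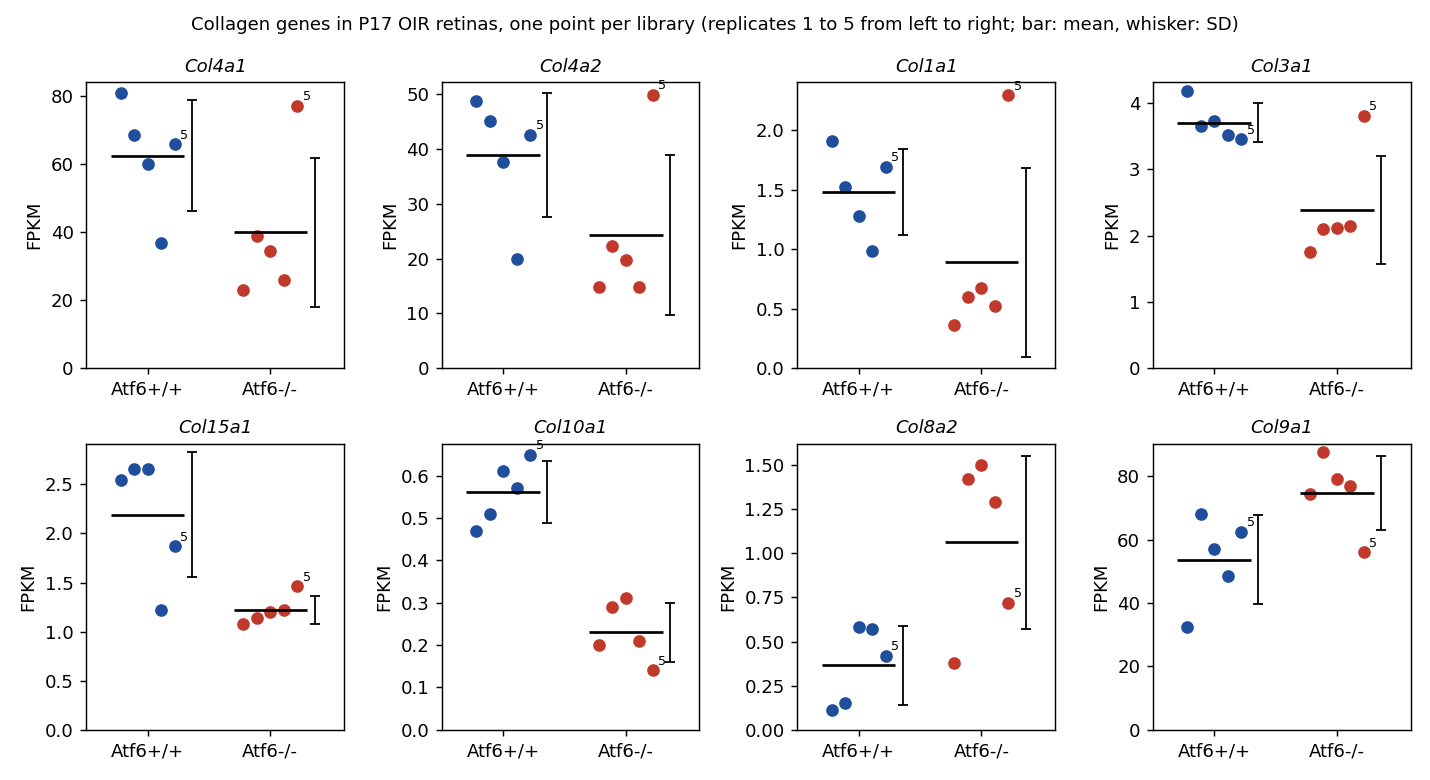
FPKM (vertical axes, linear from 0) of 8 collagen genes in Atf6+/+ and Atf6-/- OIR retinas, with 1 point per library in replicate order, replicate 5 numbered, a bar at the mean and a whisker of 1 SD. Atf6-/- replicate 5 stood at or above the wild-type mean for Col4a1, Col4a2, Col1a1 and Col3a1, whereas all 5 knockout libraries lay below all wild-type libraries for Col10a1.

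The 3 network-forming chains had estimates in both directions. Col10a1, best known from growth plate cartilage, was at 0.47, 0.51, 0.61, 0.57 and 0.65 FPKM in Atf6+/+ OIR and at 0.2, 0.29, 0.31, 0.21 and 0.14 FPKM in Atf6-/- OIR. The groups did not overlap, and the log2 fold change was -1.01 (SE 0.17, adjusted p = 0.0955). The exact two-sided permutation p was 0.00794, the smallest that 5 against 5 libraries can give. Any gene whose groups do not overlap reaches it, as Col16a1 did. The gene lies within Nt5dc1, which runs on the opposite strand and shares exonic sequence with it in GENCODE M21, so reads of the 2 genes may be shared if strand was not used in counting. Nt5dc1 was at 1.81 ± 0.288 FPKM in Atf6+/+ OIR and at 1.8 ± 0.42 FPKM in Atf6-/- OIR, a log2 fold change of -0.01.

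Col8a2, a chain of type VIII collagen, was at 0.11, 0.15, 0.58, 0.57 and 0.42 FPKM in Atf6+/+ OIR and at 0.38, 1.42, 1.5, 1.29 and 0.72 FPKM in Atf6-/- OIR. All knockout libraries but replicate 1 were above every wild-type library, and the log2 fold change was 1.36 (SE 0.40, adjusted p = 0.358). Its partner Col8a1 was at 1.24, 1.49, 2.11, 1.85 and 1.76 FPKM against 1.27, 3.23, 3.25, 3.06 and 1.43 FPKM, with a log2 fold change of 0.44 (SE 0.26, adjusted p = 0.447). Knockout replicates 2, 3 and 4 were high for both chains. The same 3 libraries had the highest sums of 8 retinal pigment epithelium markers, 285.5, 185.1 and 228.7 FPKM, beside 59.5 and 83.5 FPKM in replicates 1 and 5 and between 16.2 and 98.5 FPKM in Atf6+/+ OIR. Of these 8 markers 5 were higher at an unadjusted p of 0.05 or less (62.5% against 6.94% of all genes), with a median log2 fold change of 1.34, and none was at 0 in all libraries of a group. Their part in the type VIII values was not tested.

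**Figure D4:**
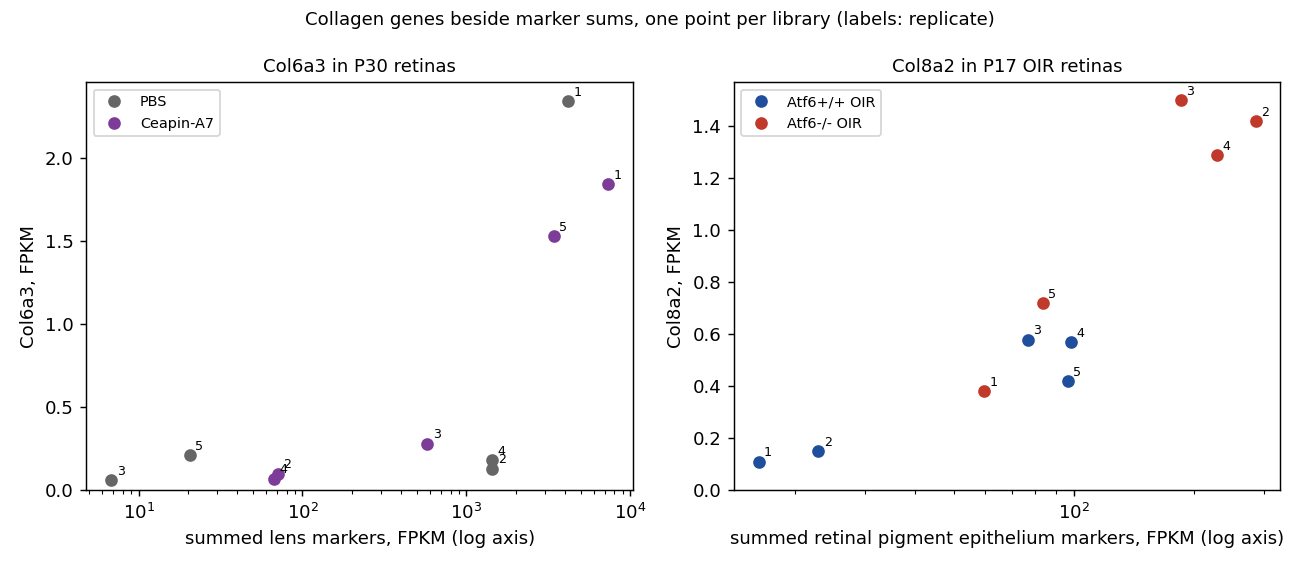
Left, Col6a3 (FPKM, linear axis) against the summed FPKM of 9 lens markers (log axis) in the 10 P30 libraries, and right, Col8a2 against the summed FPKM of 8 pigment epithelium markers (log axis) in the 10 OIR libraries. Numbers are replicates, and the 3 libraries above 1 FPKM in each panel are also those with the highest marker sums.

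Among the other collagens, Col9a1, a FACIT chain that coats type II fibrils, was at 32.4, 68.12, 56.85, 48.58 and 62.46 FPKM in Atf6+/+ OIR and at 74.44, 87.47, 78.97, 77.03 and 55.93 FPKM in Atf6-/- OIR. All knockout libraries except replicate 5 lay above all wild-type libraries, and the log2 fold change was 0.52 (SE 0.17, adjusted p = 0.36). Its partners Col9a2 and Col9a3 had log2 fold changes of 0.06 and 0.22. Col6a1 was at 37.81, 40.33, 39.73, 39.23 and 40.01 FPKM in Atf6+/+ OIR and at 37.88, 36.56, 40.62, 39.16 and 29.92 FPKM in Atf6-/- OIR, a log2 fold change of -0.09 (95% interval -0.23 to 0.06). Replicate 5 was the lowest library for it. Col6a3 had a log2 fold change of -1.0 (1.2 ± 0.572 to 0.56 ± 0.33 FPKM) and Col6a2 at -0.23, whereas Col6a4 was at 0.22, these 3 with an unadjusted p of 0.05 or less. Col14a1, a FACIT chain of fibrous tissue, had a log2 fold change of -0.42 at means of 0.224 and 0.14 FPKM, and Col16a1, whose groups did not overlap after rescaling, had one of -0.19 at means of 1.85 and 1.59 FPKM.

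The remaining abundant chains did not separate the OIR groups. Col23a1 was at 33.72, 41.67, 36.1, 32.05 and 38.92 FPKM against 36.24, 36.05, 38.4, 36 and 32.07 FPKM, a log2 fold change of -0.01 (95% interval -0.18 to 0.16). Col20a1 was at 10.16, 12.95, 11.53, 13.1 and 10.92 FPKM against 10.71, 9.95, 10.57, 10.44 and 10.1 FPKM, a log2 fold change of -0.15 (SE 0.07, adjusted p = 0.395), with wild-type replicate 1 alone in the knockout range. Col25a1, a neuronal transmembrane collagen, was at 2.79, 2.62, 2.65, 2.96 and 2.74 FPKM against 2.62, 3.13, 3.23, 3.43 and 2.38 FPKM, a log2 fold change of 0.11. All 4 transmembrane collagens had an unadjusted p above 0.05.

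Chains of the same collagen type, and Col1a1 with Col3a1, were compared over the 10 libraries of each experiment, as 8 pairs in 2 experiments. Permutation p-values came from 100000 resamples and were adjusted over the 16 relations. The 2 groups of an experiment were pooled without removing their means. A difference between the groups that both chains share therefore raises r and makes its permutation p smaller. Col4a1 and Col4a2 had a Pearson r of 0.99 (Spearman rho 0.96) in OIR and of 0.98 (rho 0.99) at P30, both with an adjusted permutation p of 8e-05 for r from the smallest p that the resamples can give, 1e-05. Without the 2 libraries farthest from the median of Col4a1, r was 1.0 and 0.93. The 2 genes lie head to head and share exonic sequence on opposite strands in GENCODE M21, so shared reads cannot be told apart from joint change if strand was not used in counting. Col1a1 and Col3a1 had an r of 0.95 (rho 0.9) in OIR and of 0.94 (rho 0.93) at P30, with adjusted permutation p-values for r of 0.000267 and 0.000416, and without the 2 farthest libraries r was 0.94 and 0.84.

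Col8a1 and Col8a2 had an r of 0.87 and 0.77 (rho 0.9 and 0.84), and Col4a3 and Col4a4 of 0.82 and 0.95 (rho 0.77 and 0.94), in OIR and at P30, all 4 with an adjusted permutation p for r of 0.0138 or less. Without the 2 farthest libraries, r was 0.77 and 0.83 for the type VIII pair and 0.78 and 0.97 for the type IV pair. For Col6a1 and Col6a2, r was 0.17 (rho 0.48, adjusted permutation p = 0.65) in OIR and 0.88 (rho 0.83, adjusted permutation p = 0.00181) at P30. For Col9a1 and Col9a2 it was 0.47 (rho 0.39, adjusted permutation p = 0.201) and 0.91 (rho 0.83, adjusted permutation p = 0.000533). Without the 2 farthest libraries these were 0.49 and 0.8 for type VI and 0.16 and 0.88 for type IX. Col1a1 and Col1a2 gave an r of 0.88 (rho 0.79) in OIR, and at P30 an r of 0.57 (rho 0.38) that rested on 2 libraries, being -0.25 without them. Col5a1 and Col5a2 gave 0.66 (rho 0.73, adjusted permutation p = 0.0532) and 0.3 (rho 0.5), or 0.79 and 0.05 without the 2 farthest libraries. No difference of r between the experiments was tested.

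**Figure D5:**
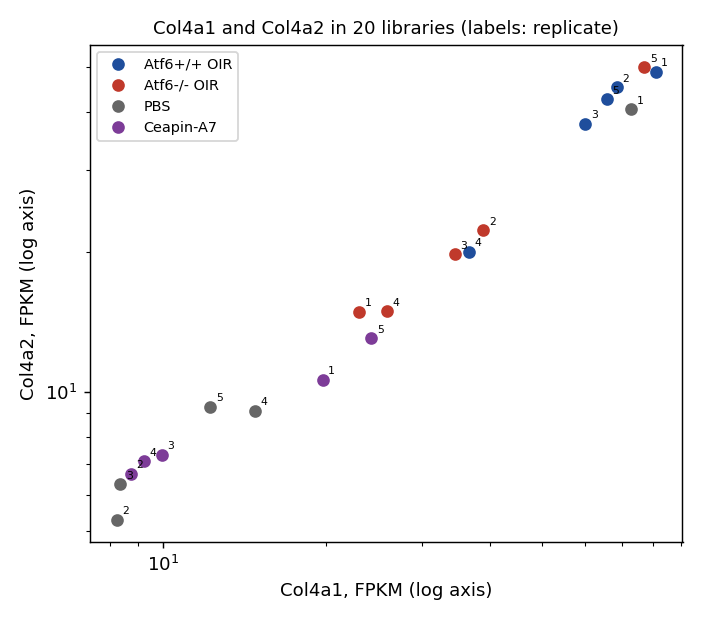
Col4a2 against Col4a1 (FPKM, both axes logarithmic) in all 20 libraries, coloured by group and numbered by replicate. PBS replicate 1, at 72.88 and 40.51 FPKM, lies among the OIR libraries and apart from the other P30 libraries, which reached at most 24.22 FPKM of Col4a1.

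The injection comparison asked whether blocking ATF6 for a day alters the P30 retina without OIR, and the eyes of both groups were injected. Few collagen genes differed, and with all 10 libraries their share was close to that of all genes. Of the 44 collagen genes, 42 were tested (Col14a1 and Col6a5 had a mean at or below 0.1 FPKM), and 0 were called at an adjusted p below 0.05 by limma with Benjamini-Hochberg adjustment, as were 0 of all 15408 genes, or 0%. At an unadjusted p of 0.05 or less there were 5, 11.9% of those tested against 10.4% of all genes, with 2 higher (4.76% against 5.04%) and 3 lower (7.14% against 5.31%). Estimates were split into 21 higher and 21 lower, with a median log2 fold change of -0.03 against 0.001 over all genes. The groups overlapped for every collagen gene, where 1.47% of all genes had no overlap (0.785% higher and 0.688% lower). Collagen counts moved with single libraries, to 5 higher (11.9% against 5.45% of all genes) and 1 lower (2.38% against 4.89%) without PBS replicate 1. Without PBS replicate 2 there were 1 higher (2.38% against 8.09%) and 9 lower (21.4% against 8.31%), so the share was not close to that of all genes under these settings. With Ceapin-A7 replicate 1, 2 or 3 or PBS replicate 4 or 5 left out, 0 were higher, against 3.2% to 4.55% of all genes. Without PBS replicate 4, 2 were lower (4.88% against 3.01%).

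Col9a1 was at 19.98, 11.67, 25.01, 5.67 and 7.65 FPKM in PBS and at 26.56, 22.26, 26.73, 16.76 and 19.88 FPKM in Ceapin-A7. PBS replicates 4 and 5 were lowest, and the groups overlapped through PBS replicates 1 and 3. The log2 fold change was 0.87 (SE 0.36, adjusted p = 0.472). PBS replicates 4 and 5 also had the lowest sums of rod and cone markers, 14470 and 13470 FPKM against 18340 to 20420 FPKM in the other PBS libraries, and of Muller glia markers, 793.6 and 926.4 FPKM against 1034 to 1433 FPKM. All 9 photoreceptor markers had higher estimates in Ceapin-A7, 4 at an unadjusted p of 0.05 or less (44.4% against 5.04% of all genes), and their part in the Col9a1 value was not tested. Col23a1 was at 18.99, 13.2, 19.07, 12.87 and 14.37 FPKM in PBS and at 18.68, 19.44, 19.97, 17.48 and 18.1 FPKM in Ceapin-A7, with a log2 fold change of 0.27 (SE 0.12, adjusted p = 0.472). Here PBS replicates 2, 4 and 5 were low and the other PBS libraries lay among those of Ceapin-A7.

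Lower values were seen for 3 chains. Col20a1, a FACIT chain, was at 9.04, 7.14, 7.52, 8.83 and 9.33 FPKM in PBS and at 7.76, 7.45, 6.26, 6.78 and 6.94 FPKM in Ceapin-A7 (log2 fold change -0.24, SE 0.08, adjusted p = 0.472). Col8a1 was at 2.6, 2.27, 2.03, 1.75 and 1.86 FPKM against 2.0, 1.37, 1.15, 1.03 and 2.04 FPKM (log2 fold change -0.48, SE 0.20, adjusted p = 0.472). Col25a1 was at 3.33, 3.23, 2.88, 4.13 and 3.35 FPKM against 2.85, 2.67, 2.52, 3.17 and 3.09 FPKM (log2 fold change -0.23, SE 0.10, adjusted p = 0.472). In each of the 3 the ranges overlapped. For Col8a1, Ceapin-A7 replicates 1 and 5 reached the PBS range, and these had the highest pigment epithelium sums of their group, 154.7 and 181.8 FPKM, beside 89.8 to 152.4 FPKM in its other libraries and 115 to 234.1 FPKM in PBS. Replicate 3 had nearly the sum of replicate 1, 152.4 FPKM, but 1.15 FPKM of Col8a1. Of the 8 pigment epithelium markers 3 had higher and 5 lower estimates in Ceapin-A7. At the unadjusted threshold 2 were higher and 2 lower (25% each, against 5.04% and 5.31% of all genes). Col8a2 was at 3.33, 2.94, 1.6, 0.94 and 1.89 FPKM against 1.92, 1.19, 1.46, 1.06 and 2.78 FPKM, a log2 fold change of -0.29 (95% interval -1.03 to 0.45). The part of the pigment epithelium markers in these values was not tested, nor was the difference between the type VIII changes in the 2 experiments.

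Type IV chains at P30 were set by 1 library. Col4a1 was at 72.88, 8.24, 8.36, 14.8 and 12.24 FPKM in PBS and at 19.7, 8.74, 9.97, 9.22 and 24.22 FPKM in Ceapin-A7. Col4a2 was at 40.51, 5.3, 6.32, 9.1 and 9.28 FPKM against 10.6, 6.66, 7.31, 7.09 and 13.01 FPKM. PBS replicate 1 exceeded every other P30 library for both, followed by Ceapin-A7 replicates 5 and 1. The log2 fold changes were -0.25 and -0.25 (SE 0.55 and 0.46), and without PBS replicate 1 they were 0.31 and 0.24. Col4a3, Col4a4, Col4a5, Col4a6 and Col6a3 were highest in the same PBS library, at 5.1, 4.51, 10.34, 4.95 and 2.34 FPKM. Without it Col4a3, Col4a4 and Col4a5 had log2 fold changes of 0.91, 0.60 and 0.60 with an unadjusted p of 0.05 or less (adjusted p = 0.478 each by limma). Col4a6 did not pass that threshold. PBS replicate 1 and Ceapin-A7 replicates 1 and 5 had the highest lens marker sums, 4147, 7335 and 3422 FPKM, and held 2.34, 1.84 and 1.53 FPKM of Col6a3 where the other 7 libraries had between 0.06 and 0.28 FPKM. All 9 lens markers had higher estimates in Ceapin-A7, 0 at an unadjusted p of 0.05 or less, with a median log2 fold change of 1.10, and their part in the type IV and Col6a3 values was not tested.

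The other fibrillar and basement membrane chains did not separate the P30 groups. Col1a1 was at 0.6, 0.21, 0.31, 0.53 and 0.79 FPKM in PBS and at 0.4, 0.54, 1.35, 0.55 and 0.39 FPKM in Ceapin-A7. Col3a1 was at 1.02, 0.37, 0.39, 0.57 and 0.9 FPKM against 0.63, 0.71, 2.8, 0.91 and 0.44 FPKM. Col1a2 was at 3.91, 0.76, 2.78, 1.28 and 1.27 FPKM against 1.78, 2.49, 4.63, 1.65 and 1.79 FPKM. Ceapin-A7 replicate 3, the shallowest library, was highest for all 3, and it also had the highest sums of mural markers, 68.8 FPKM where the other P30 libraries had 28.1 to 37.9 FPKM, and of fibroblast, choroid and sclera markers, 79.2 FPKM where they had 3.69 to 52.7 FPKM. In PBS the fibroblast marker Dpt was at 0 in all libraries. Of these 8 fibroblast markers 7 were tested, all with higher estimates in Ceapin-A7 and 2 at an unadjusted p of 0.05 or less (28.6% against 5.04%), and the part of either list was not tested. The log2 fold changes of Col1a1, Col3a1 and Col1a2 were 0.31, 0.49 and 0.40, with adjusted p-values of 0.736, 0.663 and 0.716 by limma.

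Vitreous and perivascular chains at P30 overlapped as well. Col2a1 was at 13.78, 10.36, 13.84, 7.08 and 8.01 FPKM in PBS against 12.81, 13.42, 10.93, 10.69 and 12.24 FPKM in Ceapin-A7, a log2 fold change of 0.22 (95% interval -0.18 to 0.63). Col18a1 was at 16.97, 3.99, 15.03, 7.44 and 5.9 FPKM against 11, 11.44, 20.65, 4.98 and 8.55 FPKM, a log2 fold change of 0.26 (95% interval -0.69 to 1.21). Col15a1 was at 0.76, 0.74, 0.66, 0.66 and 0.62 FPKM against 0.8, 0.72, 1.05, 0.77 and 0.71 FPKM, with a log2 fold change of 0.20 (95% interval -0.08 to 0.48). The spread within a group was wide for Col18a1, whose PBS libraries spanned from 3.99 to 16.97 FPKM, and narrow for Col15a1.

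Col5a3 was at 1.31, 1.02, 1.08, 2.68 and 2.11 FPKM against 0.66, 1.01, 1.38, 1.1 and 1.07 FPKM, with PBS replicates 4 and 5 highest and a log2 fold change of -0.54 (SE 0.26, adjusted p = 0.484). Col6a1 was at 22.19, 16.89, 20.78, 23.31 and 29.2 FPKM against 19.64, 20.32, 17.53, 18.22 and 19.46 FPKM, a log2 fold change of -0.22 (SE 0.11, adjusted p = 0.492), and PBS replicate 5 was again highest. Col5a2 was at 0.51, 0.25, 0.34, 0.33 and 0.46 FPKM against 0.23, 0.29, 0.84, 0.41 and 0.36 FPKM (log2 fold change 0.07). Col10a1, whose OIR groups did not overlap, was close to the 0.1 FPKM filter at P30, at 0.06, 0.03, 0.18, 0.11 and 0.08 FPKM in PBS and 0.08, 0.18, 0.16, 0.12 and 0.01 FPKM in Ceapin-A7. At these levels 2 decimals of FPKM leave little precision, and the interval of its log2 fold change, -0.56 to 0.77, was wide.

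Genes that modify, assemble, bind and degrade collagen were examined as 4 lists of 61 genes. In OIR, 58 were tested, 44 with lower and 14 with higher estimates and a median log2 fold change of -0.17, and 11 had an unadjusted p of 0.05 or less, 9 lower and 2 higher (15.5% and 3.45% against 5.81% and 6.94% of all genes). None had an adjusted p below 0.05. Of 21 chain processing genes 4 were lower at the unadjusted threshold (19.0% against 5.81% of all genes), namely the prolyl and lysyl hydroxylases P4ha3, P3h3, Plod1 and P4ha1. P4ha3, an alpha subunit of collagen prolyl hydroxylase, was at 0.96, 0.83, 0.87, 0.87 and 0.99 FPKM in Atf6+/+ OIR and at 0.67, 0.53, 0.48, 0.45 and 0.46 FPKM in Atf6-/- OIR. The groups did not overlap, and the log2 fold change was -0.69 (SE 0.13, adjusted p = 0.177). P3h3, of the prolyl 3-hydroxylase family, was at 18.14, 18.66, 18.19, 17.82 and 16.59 FPKM against 13.69, 15.66, 15.47, 14.09 and 13.76 FPKM, again without overlap, with a log2 fold change of -0.28 (SE 0.06, adjusted p = 0.238). Plod1 and P4ha1 had log2 fold changes of -0.37 and -0.22. Unlike in Col1a1 and Col4a1, knockout replicate 5 lay with its group for P4ha3 and P3h3.

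The collagen chaperone Serpinh1 (HSP47) had a log2 fold change of -0.25 (95% interval -0.61 to 0.10) and the common hydroxylase subunit P4hb one of -0.05 (-0.20 to 0.10). Of 15 maturation genes tested, 3 were lower at the unadjusted threshold (20% against 5.81% of all genes). These were the cross-linking enzyme Loxl2 (-0.68), the propeptidase Adamts2 (-0.56) and fibronectin Fn1 (-0.64). Of 9 receptors tested, 1 was lower (11.1% against 5.81%), the integrin subunit Itga1 (-0.49). Of 13 degradation genes, the membrane protease Mmp14 (-0.49) was lower, 7.69% against 5.81% of all genes. Mmp16 (0.42) and the protease inhibitor Reck (0.27) were higher, 15.4% against 6.94%.

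At P30, 57 of the 61 genes were tested, and 5 had an unadjusted p of 0.05 or less, all lower (8.77% against 5.31% of all genes), with a median log2 fold change of -0.05 over the lists and no adjusted p under 0.472. They were P4ha3 and P3h3, the procollagen peptidase Bmp1 (-0.60), the matrix receptor Cd44 (-0.85) and the protease Mmp2 (-0.42). P4ha3 was at 0.27, 0.17, 0.18, 0.61 and 0.31 FPKM in PBS and at 0.06, 0.08, 0.12, 0.19 and 0.12 FPKM in Ceapin-A7, near the filter, with overlap through Ceapin-A7 replicate 4 and a log2 fold change of -0.87 (SE 0.28, adjusted p = 0.472). P3h3 was at 9.91, 9.04, 9.66, 13.58 and 13.92 FPKM against 9.07, 9.7, 9.5, 9.26 and 8.43 FPKM, with a log2 fold change of -0.26 (SE 0.11, adjusted p = 0.472) and with PBS replicates 4 and 5 far above the rest. Serpinh1 and P4hb had log2 fold changes of -0.34 (95% interval -0.92 to 0.24) and -0.04 (-0.16 to 0.08).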

How the data were processed

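The data are bulk RNA-Seq of 20 whole-retina libraries, 5 per group, grouped and numbered by the sample labels. The authors sequenced stranded mRNA libraries on the DNBSEQ platform as paired-end reads of 100 bp and deposited gene-level FPKM with 2 decimals, 1 table for each group. The submitters' processing notes name the build GRCm39 and the tools HISAT2 2.0.4, RSEM 1.2.18 and DESeq2 1.4.5. Whether counting used strand is not given in the sources used here. The deposited FPKM are not counts, so depth is known only relative to the other libraries, no count model was fitted and no counting interval was computed.

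The 10 libraries of an experiment were fitted together. Values were rescaled by median-of-ratios factors (0.946 to 1.04 in OIR and 0.98 to 1.02 at P30) and taken to log2 with a pseudocount of 0.1, and genes with a mean above 0.1 FPKM were tested with limma (version 3.58.1, eBayes with trend, two-sided) in R (version 4.3.3). Fold changes are therefore on the log2(FPKM + 0.1) scale, which understates changes of low genes. Benjamini-Hochberg adjustment ran over every gene tested in an experiment. The unadjusted threshold of 0.05 or less follows the methods of the study. The 5 libraries of a group are separate retina samples by their labels, and nothing there says how many animals each holds, so p-values measure the spread between these samples. On simulated data with 200 genes changed 2-fold, 85% were called in OIR (15704 genes) and 89% at P30 (15408 genes), with 0.0387% and 0.0329% of unchanged genes. The simulated noise was drawn independently for each gene, so shifts that many genes of a library share were absent. These shares therefore check the fit and do not tell how often a 2-fold change would be called in the real libraries.

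The collagen genes, their chain types, the pathway lists and the marker lists were chosen with earlier results of these data known. Given in every library are the 6 collagens with the smallest p per experiment, the most abundant collagen of each chain type and 8 collagens chosen by role, 18 in all. Named with their fold changes are, of the pathway lists, the genes with an unadjusted p of 0.05 or less, Serpinh1 and P4hb. Per-library values of P4ha3, P3h3 and Nt5dc1, and those of Col4a3, Col4a4, Col4a5, Col4a6 and Col6a3, were added after their values were seen. Promoter windows came from the RefSeq table for GRCm38.p6 by symbol (35 of 44 genes), and windows that overlap an annotated exon were not shown. Col1a1, Col2a1 and Col5a2 are among the 9 without an entry. Alternatives were other pseudocounts, filters and scalings, limma without trend or with array weights, a replicate block, a fit of all 20 libraries, and each library left out in turn.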

Additional observations from a re-analysis of the deposited data

Results flagged for a closer look

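Values of the 18 collagens given per library were rescaled and taken to log2 with the pseudocount, as for the fits. Each group of 5 libraries was then screened for a single library standing apart. The measure was its gap to the next library, divided by the range of the group, against Dixon's 95% critical value of 0.71. FPKM quoted below are the deposited values, on which the gaps differ. Of 72 groups 5 stood out, where chance alone picks about 1 in 20. Col1a2 and Col3a1 in Atf6-/- OIR replicate 5, at 3.86 and 3.81 FPKM, were far above the other 4 knockout libraries. Col4a1 and Col4a2 in PBS replicate 1, at 72.88 and 40.51 FPKM, were far above the other PBS libraries. Col1a1 in Ceapin-A7 replicate 3, at 1.35 FPKM, was far above the other Ceapin-A7 libraries, and that library had a relative depth of 0.68. PBS replicate 1 also had the highest lens sum of its group, and Ceapin-A7 replicate 3 the highest mural and fibroblast sums of its own. Atf6-/- OIR replicate 5 stood out less, with a mural sum of 101.8 FPKM beside 94.9 FPKM in replicate 3. Its endothelial sum of 131.5 FPKM was below the 136.9 FPKM of replicate 2. The cause of the values in these libraries was not tested.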

How the results depend on the processing

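The count of lower collagens in OIR and the near-even split at P30 rest on few libraries and on unadjusted p-values, and FPKM to 2 decimals limit genes near 0.1 FPKM. With 12 lower and 3 higher collagens and 0 with an adjusted p below 0.05 in OIR, array weights gave 18 lower (40.9% against 19.2% of all genes), 5 higher (11.4% against 17.4%) and 11 with an adjusted p below 0.05, with 2769 of all genes at that threshold instead of 5 and 5749 instead of 2002 at the unadjusted one. Limma without trend gave 1, Col10a1, with an adjusted p of 0.0398 (0.00644 to 0.387 for the smallest collagen value over the alternatives). The fit of all 20 libraries gave 1 higher (2.27% against 9.38%) and 5 lower (11.4% against 8.08%), with 11 genes in all at the adjusted threshold, and no filter gave 9 genes. At P30, with 2 higher and 3 lower collagens, TPM scaling gave 1 higher (2.38% against 2.96%), no trend 0 (0.0% against 4.45%) and array weights 0 (0.0% against 4.75%). There the fit of all 20 libraries gave 5 lower (11.4% against 4.38%) and 1 of all genes at the adjusted threshold. Array weights turned Col5a2 to -0.02, Col10a1 to -0.03 and Col18a1 to -0.06 at P30. The cause of these shifts was not tested.

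Leaving out 1 library at a time gave 5 to 9 genes in all at the adjusted and 1092 to 4011 at the unadjusted threshold in OIR, with 0 to 1 collagens at the adjusted threshold. At the unadjusted threshold, 2 to 5 collagens were higher (4.55% to 11.4%, against 3.9% to 11.8% of all genes). There were 5 to 13 lower (11.4% to 29.5%, against 3.05% to 13.7%). At P30 leaving out 1 library gave 956 to 2529 genes at the unadjusted threshold. Of the collagens, 0 to 5 were higher (0.0% to 11.9%, against 3.2% to 8.09% of all genes). There were 1 to 9 lower (2.38% to 21.4%, against 3.01% to 8.31%). The sign turned in OIR for Col5a3 (-0.14 to 0.05), Col18a1 (-0.29 to 0.01) and Col23a1 (-0.07 to 0.04), and at P30 for Col4a1 (-0.47 to 0.31), Col4a2 (-0.48 to 0.24), Col5a2 (-0.17 to 0.21), Col10a1 (-0.02 to 0.32) and Col18a1 (-0.00 to 0.52).

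Of all genes at the unadjusted threshold, 54.4% were higher in Atf6-/- OIR, but 30.5% with FPKM as deposited and 31.0% with TPM scaling. At P30 48.7% were higher, but 26.8% with TPM scaling. With the replicate number as a block, 3 collagens were higher (6.82% against 5.74% of all genes) and 10 lower (22.7% against 6.79%) in OIR. At P30, 2 were higher (4.76% against 5.43%) and 4 lower (9.52% against 5.0%). No collagen passed the adjusted threshold with this block. Same-numbered libraries did not deviate together, with correlations of -0.26 to 0.21 in OIR and -0.22 to 0.31 at P30, so the numbers are not taken as pairs.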
